A study of Mus musculus with 14 samples.

Results

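Receptors for neuropeptides and for metabolic hormones were followed across the cell types of the mouse lateral hypothalamic area and across a control and a high fat diet. The 41 genes were chosen by name as the receptors that read leptin, insulin, gut hormones and the peptides released in and around this brain region, and they are 41 of the 21568 gene symbols in the count tables. All 41 were found, and 14 of them had a row in every table. A missing row was read as 0 transcripts.

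The study measured single-cell transcripts by Drop-seq, a droplet method in which each captured transcript carries a barcode of its cell and a unique molecular identifier (UMI), so that a UMI stands for 1 captured molecule. Tissue punches came from 14 male wildtype C57BL/6J mice, 7 on control chow matched in taste and 7 on high fat diet, all with free access to food and water on a reversed light cycle. Each mouse gave 1 library, and the libraries were sequenced in 2 pools, each holding mice of both diets. The age of the mice and the time on diet were not given in the sources used here.

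Most of these receptors are G protein-coupled receptors, which pass the binding of a peptide to a G protein inside the cell, whereas the leptin receptor signals through an associated kinase and the insulin and IGF-1 receptors are kinases themselves. The lateral hypothalamic area drives feeding, arousal and reward, and holds the neurons that make hypocretin (orexin) and melanin-concentrating hormone (MCH), along with GABAergic and glutamatergic neurons of many kinds. Receptor transcripts are usually rare, so that a cell with no UMI of a receptor may still express it.

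Of 28410 barcodes, 15378 passed minimums of 500 UMIs and 300 genes with no more than 20% mitochondrial UMIs, and 15164 cells were kept after removal of 214 predicted doublets. The tables held between 147470 and 5611524 UMIs per mouse, and 49 to 1753 cells were kept per mouse. Kept cells numbered 1066 ± 642 in the control group and 1100 ± 624 on high fat diet (SD, n = 7 and 7, 2-sided exact permutation p = 0.972 on log10 values). Cells were clustered without the 41 receptors and named by resemblance to marker genes, which gave 5316 neurons with a median of 3994.5 UMIs, 6176 oligodendrocytes (1095 UMIs), 913 astrocytes (676), 641 oligodendrocyte precursors (1009), 447 microglia (873), 421 endothelial cells (828) and 279 mural cells (786). The neurons comprised 1810 glutamatergic, 3181 GABAergic, 139 hypocretin and 56 MCH neurons and 130 that were left unnamed. High fat diet mouse 7 gave 3 neurons and was left out of the tests in neurons. One neuron subcluster, led by Col25a1, Grik1 and Gfra1, held 19.4%, 27.1% and 26.6% of the neurons of control mice 1 and 2 and high fat diet mouse 1, against at most 5.88% in each of the other 11 mice. Each count of receptors that passed a diet test within a class or a test between classes was therefore also taken without these 3 mice. The test of the difference of diet effects between neuron types was not repeated without these mice. Only 3 barcodes occurred in more than 1 mouse.

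At least 1 receptor UMI was found in 80.5% of neurons, with a median of 2 different receptors per neuron and a maximum of 13. The share was 83.6% in astrocytes, 55.9% in oligodendrocyte precursors, 42.3% in endothelial cells, 36.9% in mural cells, 9.5% in oligodendrocytes and 8.7% in microglia. Neurons were read more deeply than glia. Cells with at least 800 UMIs were therefore also thinned to that depth and shallower cells left out, which removed 193 neurons, 643 of the 913 astrocytes, 201 precursors, 193 endothelial cells, 142 mural cells, 190 microglia and 1659 oligodendrocytes. In the thinned cells the shares were 36.4% in neurons, 84.4% in astrocytes, 45.7% in oligodendrocyte precursors, 32.0% in endothelial cells, 32.8% in mural cells, 7.8% in microglia and 6.1% in oligodendrocytes. The astrocyte share rested mostly on Ntsr2 and Adcyap1r1, whereas that of neurons was spread over many receptors. Because transcripts are tagged at their 3′ end, UMIs were not divided by gene length. Shares are given with exact (Clopper-Pearson) 95% intervals where they carry a comparison, and these intervals, like the limits set by counts of 0, cover counting error only.

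**Figure D1:**
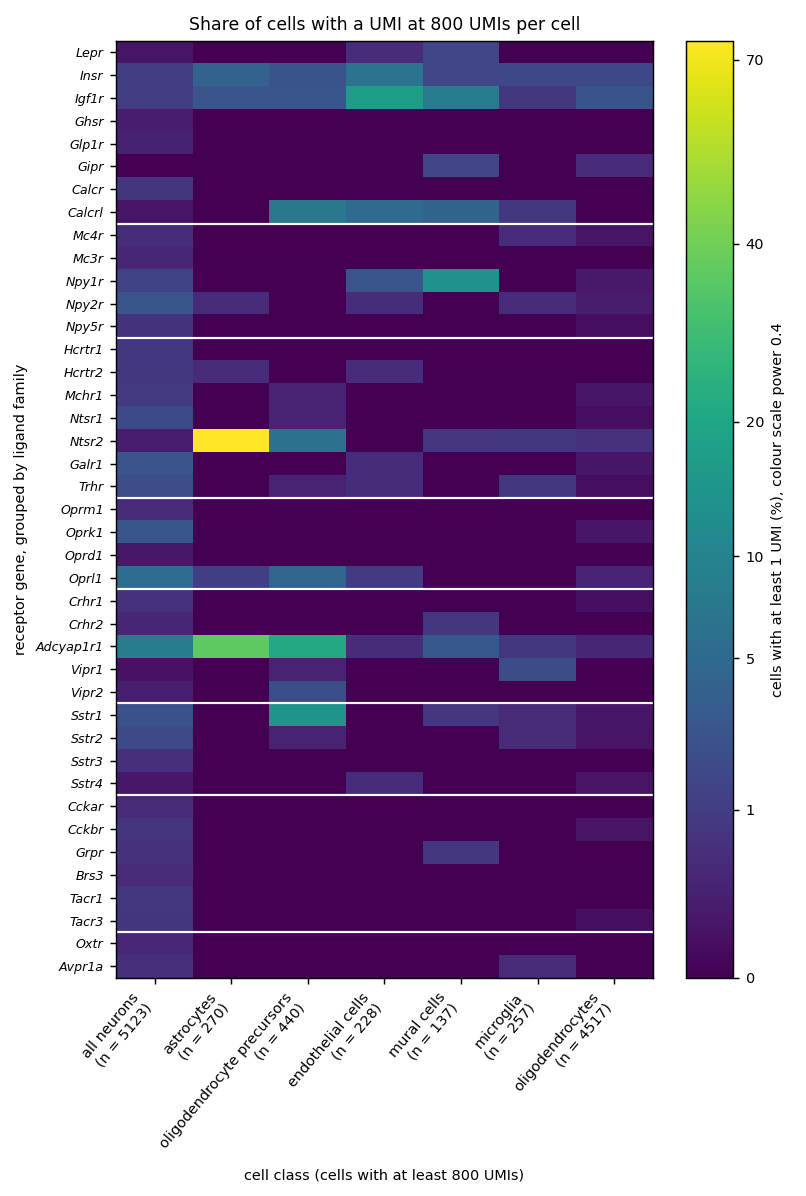
Share of cells with at least 1 UMI of each receptor (colour, percent) in 7 cell classes (columns), among cells with at least 800 UMIs thinned to that depth (270 of 913 astrocytes and 137 of 279 mural cells, for example). Ntsr2 in astrocytes (73.7%), Adcyap1r1 in astrocytes (35.9%) and precursors (20.9%), Igf1r in endothelial cells (17.1%), Sstr1 in precursors (14.3%) and Npy1r in mural cells (13.9%) stood above the neuronal shares.

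Peptide transcripts of single neuron types were also counted in cells of other classes. Hcrt, which encodes the hypocretin peptides, had a UMI in 36.3% of GABAergic neurons and 23.2% of oligodendrocytes, and Pmch, which encodes MCH, in 21.9% and 13.7%. The receptors are far rarer transcripts. In oligodendrocytes Adcyap1r1, which was also frequent in astrocytes and precursors, had 44 UMIs. Apart from Adcyap1r1, no mainly neuronal receptor exceeded the 0.291% (18 cells) of Oprl1. Per 1000 UMIs of a list of 10 general neuron markers, Oprl1 had 3.65 UMIs in neurons and 3.75 in oligodendrocytes, Oprk1 1.93 and 1.87, and Trhr 1.72 and 1.46. For these 3 receptors the ratio in oligodendrocytes was close to that in neurons, whereas that of Oprl1 was 24.6 in oligodendrocyte precursors and 0 in microglia. The part of RNA from other cells in these shares was not tested, and no expression in oligodendrocytes is read from them.

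Among the receptors of circulating metabolic hormones, those for insulin and IGF-1 were widespread and those for leptin and the gut hormones were rare. Igf1r, the kinase receptor of insulin-like growth factor 1, had a UMI in 27.3% of endothelial cells (115 cells), 6.57% of neurons (349), 4.08% of oligodendrocytes (252) and 26 mural cells. In endothelial cells Igf1r ranged over 12 mice from 172 to 568 CPM (UMIs per 1000000 UMIs of the class in that mouse) with a median of 236, and in the neurons of the same mice from 8.56 to 24.7 CPM with a median of 15. The ranges did not overlap, and Igf1r was higher in endothelial cells by 3.86 on the log2 scale (SE 0.22, adjusted p = 2.15e-50, higher in 12 of 12 mice; edgeR's quasi-likelihood test with mouse as a block and Benjamini-Hochberg adjustment over all genes, as for all adjusted p-values here unless another tool is named). Within the vessels, Igf1r had a UMI in 46.4% (26 of 56, median 1709 UMIs per cell) of an endothelial subcluster led by Cyp2e1, Lsr and Slc38a5, in 29.9% (69 of 231, median 691) of the largest endothelial subcluster and in 16.7% (20 of 120, median 1037.5) of one led by the arterial genes Gkn3 and Bmx. These subclusters differ in depth and were not compared at equal depth.

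Igf1r was also higher in mural cells (pericytes and smooth muscle) and in oligodendrocytes than in neurons. Over mice it ranged from 0 to 276 CPM in mural cells with a median of 114 (log2 difference 2.17, SE 0.38, adjusted p = 4.65e-08, higher in 9 of 12 mice). In oligodendrocytes it ranged from 0 to 50.1 CPM with a median of 33.4 (log2 difference 1.69, SE 0.14, adjusted p = 3.68e-21, higher in 12 of 13 mice). Unlike in endothelial cells, these ranges overlapped those of the neurons. Endothelial markers were present in mural cells at 4973 CPM, against 19937 CPM in endothelial cells. Per 1000 UMIs of 8 endothelial markers, Igf1r had 23.0 UMIs in mural cells and 14.5 in endothelial cells. The part of endothelial RNA in the mural values was not tested.

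Insr, the insulin receptor, was spread more evenly, with a UMI in 8.55% of endothelial cells (36 cells), 5.14% of neurons (273), 4.27% of astrocytes (39) and 2.2% of oligodendrocytes (136). In endothelial cells it ranged from 0 to 143 CPM over 12 mice with a median of 55.7 (log2 difference from neurons 2.11, SE 0.35, adjusted p = 7.60e-09, higher in 11 of 12 mice). In astrocytes it ranged from 0 to 120 CPM with a median of 52.7 (log2 difference 1.99, SE 0.32, adjusted p = 2.44e-09, higher in 11 of 12 mice). In oligodendrocytes it ranged from 10.2 to 43.3 CPM with a median of 19.7 (log2 difference 1.15, SE 0.17, adjusted p = 1.47e-09, higher in 12 of 13 mice). Each of these ranges overlapped that of the neurons, which ran from 5.84 to 33.9 CPM with a median of 11.0 over the 12 mice of the astrocyte comparison. The astrocyte difference was lost when cells had at least 1000 UMIs (log2 difference 1.09, adjusted p = 0.308).

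Lepr, the leptin receptor, was counted in 34 neurons (0.640%, interval 0.443 to 0.893%), in 9 of the mice. Of these neurons, 16 (47.1%) lay in a GABAergic subcluster led by Gal, Nts and Hmx3, which held 12.0% of all neurons. Over mice, Lepr in neurons ran from 0 through a median of 1.36 to 2.61 CPM on control chow and from 0 through 1.01 to 2.39 CPM on high fat diet. The diets overlapped throughout, and Lepr was too sparse for a test of diet. Among the other kept cells it was counted in 4 endothelial cells, 2 mural cells, 1 fibroblast and 1 cell of the neuron clusters led by glial genes.

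Ghsr, the ghrelin receptor, was counted in 32 neurons (0.602%) and Glp1r, the receptor of glucagon-like peptide 1, in 33 (0.621%). Of the Glp1r-positive neurons, 16 (48.5%) lay in a glutamatergic subcluster led by Fezf2 that held 9.0% of all neurons. Gipr, the receptor of glucose-dependent insulinotropic polypeptide, differed from the other gut hormone receptors in that its UMIs were mostly in oligodendrocytes, in 33 cells (0.534%, interval 0.368 to 0.750%), against 5 neurons (0.0941%, interval 0.0305 to 0.219%), 2 endothelial and 2 mural cells. Gipr did not pass the low-count filter of the main test. DESeq2, run without this filter, put Gipr higher in oligodendrocytes than in neurons by 4.28 on the log2 scale (adjusted p = 2.07e-10). The UMIs behind that value came from no more than 33 oligodendrocytes and 5 neurons. It is therefore not read as a test result for Gipr.

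Calcr, the calcitonin and amylin receptor, was neuronal (145 neurons, 2.73%). Calcrl, the partner of the RAMP proteins in receptors for calcitonin gene-related peptide and adrenomedullin, was nearly absent from neurons (16 cells, 0.301%) and was counted in 72 oligodendrocyte precursors (11.2%), 31 endothelial cells (7.36%), 12 mural cells (4.30%) and 6 microglia. In precursors Calcrl ranged from 28.2 to 239 CPM over 11 mice with a median of 122, against 0 to 1.36 CPM in neurons. The ranges did not overlap, and the log2 difference was 6.69 (SE 0.37, adjusted p = 3.27e-73, higher in 11 of 11 mice). In endothelial cells it ranged from 0 to 163 CPM with a median of 44.6 (log2 difference 6.00, SE 0.51, adjusted p = 5.34e-27, higher in 10 of 12 mice). In mural cells the log2 difference was 5.22 (SE 0.74, adjusted p = 1.15e-11, higher in 7 of 12 mice). Calcrl did not pass the low-count filter in neurons alone and entered these 3 tests through the other class. Their outcome was thus set in part by the filter, and the p-values add no support to the values per mouse. Of these 3 classes, precursors were the one in which every mouse tested was above its own neurons. Per 1000 UMIs of the endothelial markers, Calcrl had 9.95 UMIs in mural cells and 3.59 in endothelial cells. The part of endothelial RNA in the mural Calcrl value was not tested.

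**Figure D2:**
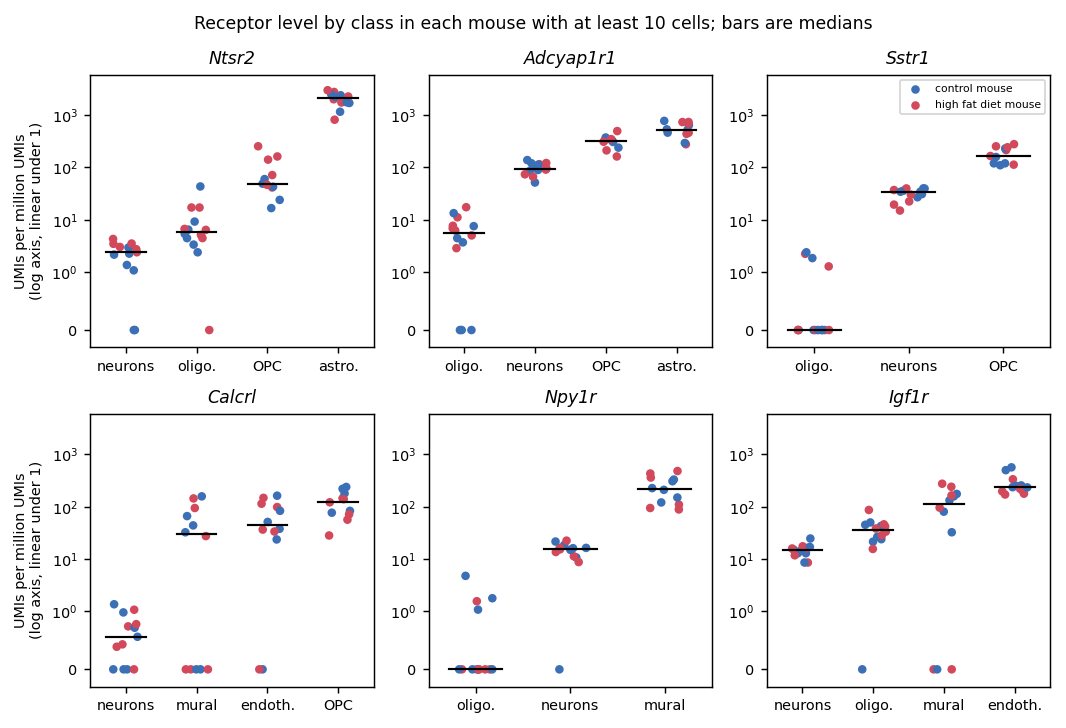
UMIs per 1000000 UMIs (CPM, log axis, linear under 1) of 6 receptors by cell class, with 1 point per mouse and class and a bar at the median. Ntsr2 and Adcyap1r1 in astrocytes, Sstr1 and Calcrl in oligodendrocyte precursors, Npy1r in mural cells and Igf1r in endothelial cells lie above the neurons of every mouse tested.

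The melanocortin receptors, which read the satiety peptide α-MSH and the orexigenic peptide AgRP, were sparse. Mc4r was counted in 137 neurons (2.58%) and Mc3r in 75 (1.41%). Of the Mc3r-positive neurons 20 (26.7%) lay in the subcluster led by Gal, Nts and Hmx3. Both receptors also occurred in a GABAergic subcluster of 150 neurons led by Tac2, Lamp5 and Grp, with Mc3r in 12 (8.00%) and Mc4r in 11 (7.33%).

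The neuropeptide Y receptors shared that Tac2 and Grp subcluster and separated outside neurons. Npy1r was counted in 305 neurons (5.74%), Npy2r in 478 (8.99%) and Npy5r in 199 (3.74%). In the Tac2 and Grp subcluster Npy1r was counted in 31 neurons (20.7%), Npy2r in 31 and Npy5r in 23 (15.3%). After thinning to 2000 UMIs, a depth that kept 4312 neurons and left out 1004, the shares there were 10.3%, 11.1% and 6.35%. Npy1r, unlike the other two, had its highest share in mural cells, where 48 cells (17.2%) carried it. In mural cells it ranged from 88.8 to 483 CPM over 12 mice with a median of 219, and in neurons from 8.75 to 22.5 CPM with a median of 15.7. The ranges did not overlap, and Npy1r was higher in mural cells by 3.21 on the log2 scale (SE 0.31, adjusted p = 1.38e-24, higher in 12 of 12 mice). Among vessel subclusters it was counted in 35.1% (39 of 111, from 12 mice, median 931 UMIs per cell) of cells led by the smooth muscle genes Acta2, Tagln and Myh11 and in 5.44% (8 of 147, median 723) of those led by the pericyte genes Kcnj8 and Vtn.

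Receptors for the peptides made in the lateral hypothalamus itself were mostly neuronal. Hcrtr1 and Hcrtr2, which read hypocretin, were counted in 211 (3.97%) and 241 (4.53%) neurons, and Mchr1, the MCH receptor, in 311 (5.85%). Hypocretin neurons carried Hcrtr1 in 12 cells and Hcrtr2 in 6, none of them with a Hcrtr2 UMI after thinning to 2000 UMIs, and MCH neurons carried Mchr1 in 5 cells. Hcrtr2 was densest in a GABAergic subcluster of 48 neurons led by Nr4a2 and Crh (16 neurons, 33.3%, or 14.3% at 2000 UMIs). Galr1, a galanin receptor, was counted in 521 neurons (9.80%), with 81 (16.8%) of the Fezf2 subcluster and 70 (21.1%) of a subcluster led by Fam81a.

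The neurotensin receptors divided between neurons and astrocytes. Ntsr1 was counted in 414 neurons (7.79%) and was densest in hypocretin neurons (40 cells, 28.8%). Ntsr2 was counted in 662 astrocytes (72.5%) and in 63 neurons (1.19%). In astrocytes Ntsr2 ranged from 819 to 3005 CPM over 12 mice with a median of 2130, and in neurons from 0 to 4.28 CPM with a median of 2.56. The ranges lay far apart, and the log2 difference was 9.24 (SE 0.15, higher in 12 of 12 mice). Ntsr2 was also higher than in neurons in oligodendrocyte precursors, with a range of 16.7 to 255 CPM and a median of 49.0 (log2 difference 4.31, SE 0.37, adjusted p = 7.47e-31, higher in 11 of 11 mice), and in oligodendrocytes, with a range of 2.38 to 43.3 CPM and a median of 6.39 (log2 difference 2.10, SE 0.29, adjusted p = 1.38e-10, higher in 13 of 13 mice). Ntsr2 did not pass the low-count filter in neurons alone and entered each of these tests through the other class. Their outcome was thus set in part by the filter, and the p-values add no support to the values per mouse. Astrocyte transcripts were present in both precursors and oligodendrocytes. Per 1000 UMIs of 9 astrocyte markers, Ntsr2 had 64.3 UMIs in astrocytes, 32.4 in precursors, 30.1 in oligodendrocytes and 2.91 in neurons. The part of astrocyte RNA in the values outside astrocytes was not tested.

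The opioid receptors held some of the most widespread transcripts of the set. Oprl1, the nociceptin receptor, was counted in 1363 neurons (25.6%), Oprk1, the κ receptor that reads dynorphin, in 629 (11.8%), Oprm1, the μ receptor, in 103 (1.94%) and Oprd1, the δ receptor, in 55 (1.03%). Oprl1 was densest in a glutamatergic subcluster led by Trh (138 neurons, 39.5%). Oprk1 was counted in 80 neurons (24.1%) of the Fam81a subcluster, 38 hypocretin neurons (27.3%) and 78 neurons of the Fezf2 subcluster. Oprl1 was also counted in 42 oligodendrocyte precursors (6.55%) and was lower there than in neurons by −0.65 on the log2 scale (adjusted p = 0.00888). General neuron markers were counted in 89.1% of precursors at 2526 CPM, against 18055 CPM in neurons, and Oprl1 had 24.6 UMIs per 1000 neuron marker UMIs in precursors and 3.65 in neurons. The part of neuronal RNA in the precursor values of this and the other receptors was not tested. The Ipcef1 gene overlaps the 3′ end of Oprm1 on the opposite strand, and whether counting used the strand was not given in the sources used here.

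Of the receptors for stress peptides and the PACAP and VIP family, Adcyap1r1, the receptor of pituitary adenylate cyclase-activating polypeptide (PACAP), was the most widespread member, with 1824 positive neurons (34.3%). It was counted in 303 astrocytes (33.2%) and 181 oligodendrocyte precursors (28.2%) as well, and at 800 UMIs its shares were 35.9% in astrocytes, 20.9% in precursors and 8.71% in neurons. In astrocytes Adcyap1r1 ranged from 278 to 778 CPM over 12 mice with a median of 531, and in neurons from 66.4 to 138 CPM with a median of 96.8. The ranges did not overlap, and the log2 difference was 2.13 (SE 0.13, adjusted p = 9.59e-63, higher in 12 of 12 mice). In precursors it ranged from 162 to 497 CPM with a median of 322 (log2 difference 1.07, SE 0.13, adjusted p = 1.35e-14, higher in 11 of 11 mice). Within neurons it was densest in a GABAergic subcluster led by Prdm12 and Sst (107 neurons, 48.2%).

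Vipr1, a VIP receptor, was counted in 16 neurons and 8 microglia (1.79%) and stayed under 20 UMIs in each class, as did Sstr4, which makes both too sparse to compare between classes with the main test. Vipr2, the other VIP receptor, was counted in 49 neurons (0.922%), of which 21 (42.9%) lay in the Fezf2 subcluster, and in 22 oligodendrocyte precursors (3.43%). In precursors Vipr2 ranged from 0 to 68.4 CPM with a median of 28.3 and was higher than in neurons by 3.20 on the log2 scale (SE 0.50, adjusted p = 5.85e-10, higher in 8 of 11 mice). Vipr2 did not pass the low-count filter in neurons alone and entered this test through the precursors. The outcome was thus set in part by the filter, and the p-value adds no support to the values per mouse. Crhr1 and Crhr2, the receptors of corticotropin-releasing hormone and the urocortins, were counted in 171 (3.22%) and 93 (1.75%) neurons. Crhr1 was densest in the Nr4a2 and Crh subcluster (10 neurons, 20.8%) and Crhr2 in a subcluster led by C1ql2 and Tpbg (17 of 92 neurons, 18.5%). That subcluster held 18.3% of all Crhr2-positive neurons but 1.7% of neurons.

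The somatostatin receptors Sstr1, Sstr2 and Sstr3, which couple to inhibitory G proteins, were counted in 619 (11.6%), 359 (6.75%) and 112 (2.11%) neurons, and Sstr4 in 8. Sstr1 was densest in a subcluster led by Plce1 and Cngb3 (36 of 108 neurons, 33.3%), and Sstr2 in the C1ql2 and Tpbg subcluster (21 neurons, 22.8%). Sstr1 was also counted in 115 oligodendrocyte precursors (17.9%). There it ranged from 110 to 279 CPM over 11 mice with a median of 166, and in neurons from 15 to 39.7 CPM with a median of 34.4. The ranges did not overlap, and Sstr1 was higher in precursors by 1.92 on the log2 scale (SE 0.19, adjusted p = 2.84e-23, higher in 11 of 11 mice). The Slc39a11 gene overlaps the 3′ end of Sstr2 on the opposite strand, and Glp1r and Avpr1a likewise have an annotated gene there.

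Among the receptors of the remaining peptides, several were dense in hypocretin or MCH neurons. Trhr, the receptor of thyrotropin-releasing hormone, was counted in 482 neurons (9.07%) and in 70 of the 139 hypocretin neurons (50.4%, interval 41.8 to 58.9%). At 2000 UMIs its share was 32.0% of hypocretin neurons (24 cells, interval 21.7 to 43.8%) and 4.73% of all neurons. Shares at 2000 UMIs leave out shallower cells, so those of hypocretin neurons rest on fewer than 139 cells. Hypocretin neurons also carried Cckar, a cholecystokinin receptor, in 30 cells (21.6%), or 8.00% against 1.16% of all neurons at 2000 UMIs. They carried Avpr1a, a vasopressin receptor, in 38 cells (27.3%), or 6.67% against 1.21%. Cckar had 23.3% of its 129 positive neurons in the hypocretin type, which made up 2.6% of neurons.

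MCH neurons carried Tacr3, the neurokinin B receptor, in 20 of 56 cells (35.7%), and at 2000 UMIs in 29.7% (11 cells, interval 15.9 to 47.0%) against 2.11% of all neurons. They carried Npy2r in 17 cells (30.4%) and Oxtr, the oxytocin receptor, in 10 (17.9%). Tacr3 was also frequent in the Nr4a2 and Crh subcluster (17 neurons, 35.4%). Tacr1, the substance P receptor, was counted in 192 neurons (3.61%), with 42 (12.0%) of the Trh subcluster. Grpr, the receptor of gastrin-releasing peptide, was counted in 132 neurons (2.48%), with 25 (16.7%) of the Tac2 and Grp subcluster and 19 (16.7%) of one led by Nppc and Trp73. Cckbr was counted in 243 neurons (4.57%), Brs3, an orphan relative of the bombesin receptors, in 80 (1.5%), Avpr1a in 151 (2.84%) and Oxtr in 107 (2.01%). Densest here means the highest share of cells at full depth. For Hcrtr2, Oprl1 and Sstr2 another subcluster came first at 2000 UMIs. For every member the 95% intervals of the subclusters with the highest and next highest share at 2000 UMIs overlapped. For some members, such as Trhr and Ntsr1, the next was a small Chat-led subcluster with a wide interval (2.09 to 48.4%). Overlap there says little about the other subclusters. No subcluster was singled out for any receptor, and shares of subclusters were not tested.

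GABAergic and glutamatergic neurons differed in 6 of the 23 receptors that passed the low-count filter, 4 higher and 2 lower in GABAergic neurons, over 13 mice. Among all genes tested 9.13% differed, 4.72% higher and 4.42% lower. The median log2 difference was 0.03 over the receptors and −0.0033 over all genes. For each of the 6 receptors the ranges over mice overlapped between the types. The receptors higher in GABAergic neurons were Crhr1, Tacr3, Ntsr1 and Adcyap1r1, and those lower were Hcrtr2 and Calcr.

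Crhr1 ran from 6.49 through a median of 9.95 to 22.9 CPM in GABAergic neurons and from 0 through 2.72 to 9.33 CPM in glutamatergic neurons (log2 difference 1.02, SE 0.28, adjusted p = 0.00681, higher in 11 of 13 mice). Tacr3 ran from 0 through 12.1 to 38.9 CPM and from 0 through 7.10 to 17.2 CPM (0.87, SE 0.22, adjusted p = 0.00228, higher in 9 of 13 mice). Ntsr1 ran from 10.1 through 22.0 to 34.9 CPM and from 0 through 15 to 27.3 CPM (0.65, SE 0.16, adjusted p = 0.00266, higher in 10 of 13 mice). Crhr1 had the widest separation of these, with its GABAergic median above the highest glutamatergic mouse. Adcyap1r1 had the smallest difference, from 52.4 through 110 to 168 CPM against 40.9 through 80.8 to 118 CPM (0.32, SE 0.07, adjusted p = 0.000307, higher in 12 of 13 mice).

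Hcrtr2 ran from 0 through 8.09 to 15.4 CPM in GABAergic neurons and from 10.4 through 15.4 to 24.2 CPM in glutamatergic neurons (log2 difference −1.0, SE 0.20, adjusted p = 5.67e-05, lower in 12 of 13 mice). Its lowest glutamatergic mouse thus lay above the GABAergic median. Calcr ran from 0 through 6.02 to 16.2 CPM and from 0 through 10.4 to 30.8 CPM (−0.88, SE 0.27, adjusted p = 0.0308, lower in 8 of 13 mice). The Calcr difference was lost in 10 of 20 alternatives, 7 of which left out a single mouse (control 3 or 4, or high fat diet 1, 2, 4, 5 or 6), with adjusted p up to 0.325. With neurons gated by transporter and Gad transcripts instead of clusters, Ntsr1 (adjusted p = 0.159) and Tacr3 (0.0823) did not pass and Crhr1 was not tested, since it failed the low-count filter, and without the 3 mice rich in the Col25a1 subcluster Crhr1 did not (0.0553). Among receptors that missed the threshold, Tacr1 had a log2 difference of −0.65 (adjusted p = 0.0528) and Grpr of −0.71 (0.0590).

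**Figure D3:**
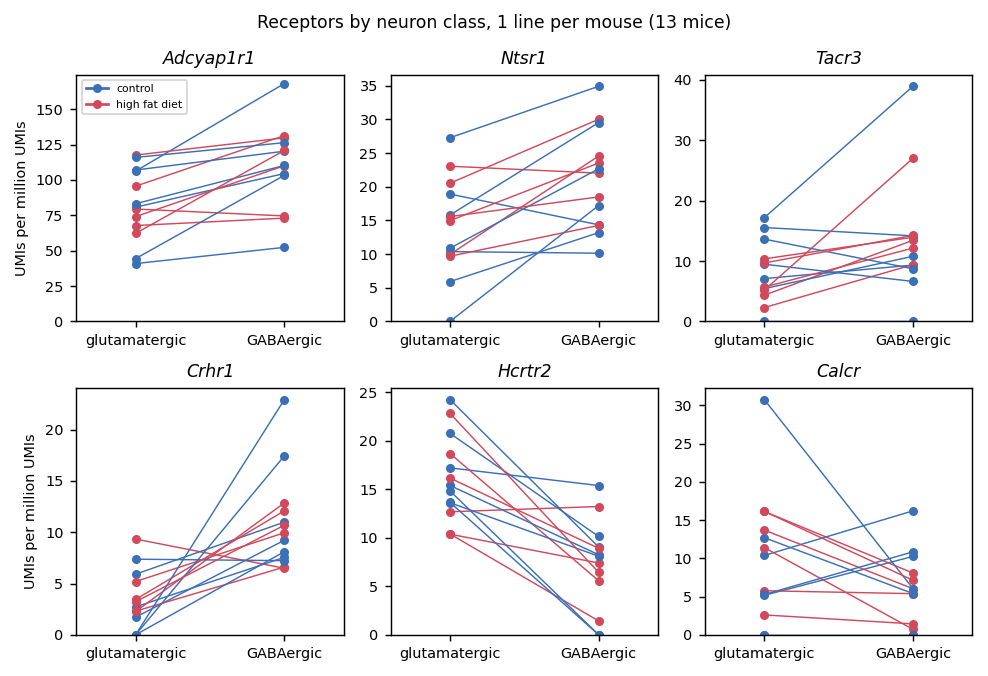
CPM of the 6 receptors that differed between GABAergic and glutamatergic neurons, with 1 line per mouse joining its values in both types (13 mice). Most lines rise towards GABAergic neurons for Crhr1, Tacr3, Ntsr1 and Adcyap1r1 and fall for Hcrtr2 (12 of 13 mice) and Calcr (8 of 13 mice).

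Set against neurons as a whole, 3 of 23 receptors tested were higher in oligodendrocytes (Ntsr2, Igf1r and Insr), beside 43.1% of all genes, 3 of 7 in astrocytes (Ntsr2, Adcyap1r1 and Insr) beside 28.4%, and 5 of 15 in oligodendrocyte precursors (Calcrl, Ntsr2, Vipr2, Sstr1 and Adcyap1r1) beside 25.1%. In endothelial cells 3 of 9 were higher (Calcrl, Igf1r and Insr) beside 28.6%, in mural cells 3 of 7 (Calcrl, Npy1r and Igf1r) beside 20%, and in microglia 0 of 3 beside 27.9%, where 3 receptors had p under 0.05 and all were lower. In microglia DESeq2 called 2 receptors higher, Calcrl (log2 difference 4.14, adjusted p = 6.60e-07) and Vipr1 (4.62, 4.28e-09), both carried by few cells. A receptor low in both classes does not enter such a test, so the counts describe the receptors that passed the filter and not the set of 41. Calcrl, Ntsr2 and Vipr2 did not pass the filter in neurons alone and entered these tests through the other class. Where these receptors were called higher, that outcome was set in part by the filter. The receptors lower than in neurons numbered 20 in oligodendrocytes (beside 42.2% of all genes), 3 in astrocytes (44.8%), 8 in precursors (35.8%), 3 in microglia (48%), 5 in endothelial cells (41.6%) and 2 in mural cells (44.2%).

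The diet comparison asked whether receptor transcripts differed between mice on control chow and on high fat diet within a cell class. No receptor passed the test in any class. In all neurons (7 control and 6 high fat diet mice) 30 receptors were tested with edgeR and 0 passed, beside 0% of 10809 genes, and 0 had an unadjusted p under 0.05. DESeq2 called 0. In GABAergic neurons 0 of 23 passed beside 0% of 9729 genes, 1 had an unadjusted p under 0.05, and in glutamatergic neurons 0 of 18 passed beside 0% of 8787, none of them under an unadjusted 0.05. DESeq2 called 0 in each.

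In oligodendrocytes and astrocytes 2 receptors each, and in oligodendrocyte precursors 3, could be tested, with 0 called by edgeR or DESeq2 and 0 at an unadjusted p under 0.05 by edgeR, beside 0% of all genes in each class. In microglia, endothelial cells and mural cells none passed the filter for this test, where 0.155%, 0.111% and 0% of all genes were called. In all neurons the median log2 difference (high fat diet minus control) was −0.10 over the receptors and −0.0011 over all genes, with 11 receptors higher and 19 lower and values between −0.42 and 0.66. The 95% interval lay within a 2-fold change in either direction for 23 of 30 receptors in all neurons, 11 of 18 in glutamatergic neurons and 19 of 23 in GABAergic neurons. For the others a 2-fold change was not excluded by the interval. The receptors not testable for diet in neurons were Lepr, Mc3r, Ghsr, Glp1r, Gipr, Calcrl, Ntsr2, Oprd1, Sstr4, Vipr1 and Vipr2. Fewer cells with a receptor and less receptor RNA per cell cannot be told apart in sums over a class.

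The most widespread neuronal receptors overlapped between diets throughout. Adcyap1r1 in neurons ran from 51.5 through a median of 98.1 to 138 CPM on control chow and from 66.4 through 93.2 to 122 CPM on high fat diet (log2 difference −0.12, SE 0.17). Oprl1 ran from 55.2 through 61.7 to 89.1 CPM and from 51.7 through 66.0 to 74.0 CPM (−0.04, interval −0.32 to 0.23). Oprk1 ran from 25.2 through 38.7 to 61.7 CPM and from 22.5 through 34.0 to 51.7 CPM (−0.11). Among these Oprl1 had the narrowest interval. Galr1 ran from 25.2 through 27.9 to 42.9 CPM and from 20.2 through 27.4 to 59.0 CPM (0.07), its highest value being high fat diet mouse 1. Sstr1 ran from 26.9 through 34.4 to 39.7 CPM and from 15 through 26.3 to 39.7 CPM (−0.32, unadjusted p = 0.131).

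Receptors tied to feeding likewise overlapped. Insr in neurons ran from 4.29 through 12.3 to 33.9 CPM on control chow and from 5.84 through 9.75 to 18.3 CPM on high fat diet (log2 difference −0.42, unadjusted p = 0.150). Mc4r ran from 0 through 5.37 to 12.3 CPM and from 3.89 through 6.13 to 11.6 CPM (−0.15). Hcrtr2 ran from 3.09 through 10.0 to 14.6 CPM and from 3.98 through 10.7 to 12.9 CPM (−0.14). In each the medians of the diets lay inside the range of the other diet. Mchr1 ran from 7.83 through 12.7 to 21.4 CPM and from 10.5 through 13.7 to 19.3 CPM (0.14).

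Grpr in GABAergic neurons had the smallest p of any receptor in the diet tests. It ran from 0.539 through 6.08 to 28.7 CPM on control chow and from 5.72 through 9.40 to 10.7 CPM on high fat diet (log2 difference 0.99, SE 0.46, unadjusted p = 0.0443, adjusted p = 0.9997), and the highest mouse was a control. In glia the astrocyte receptor Ntsr2 ran from 1164 through 2005 to 2488 CPM on control chow and from 819 through 2148 to 3005 CPM on high fat diet (0.01, SE 0.22). In oligodendrocyte precursors Calcrl was 239, 83.5, 180, 77.0 and 220 CPM in the 5 control mice and ran from 28.2 through 96.6 to 145 CPM in the 6 high fat diet mice (−0.70, unadjusted p = 0.143). The groups overlapped in both. The difference of the diet effects between GABAergic and glutamatergic neurons was tested for 23 receptors and passed for 0 by edgeR, beside 0% of 10391 genes. Before adjustment 0 receptors had p under 0.05 in that test.

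**Figure D4:**
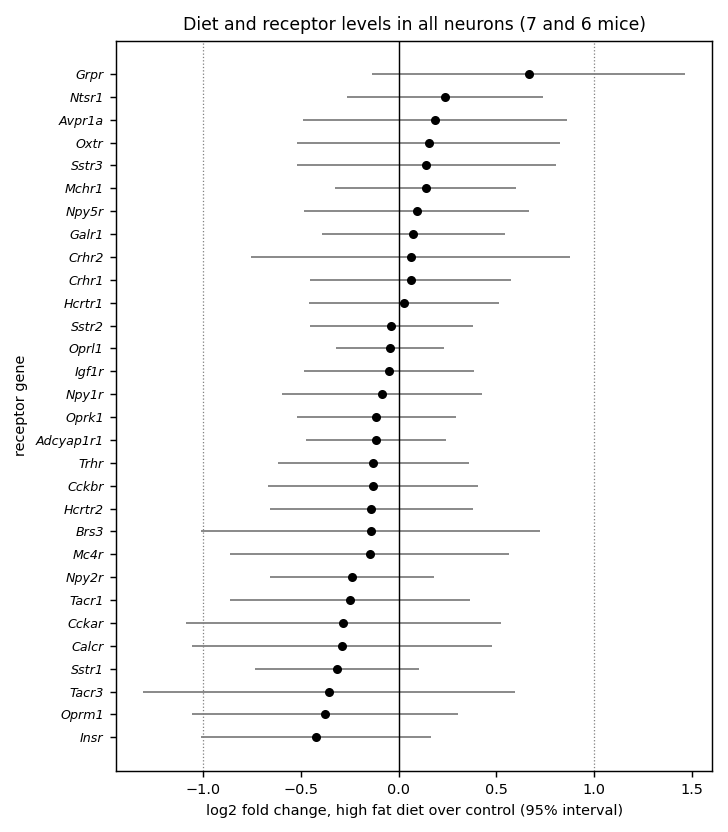
Log2 difference between high fat diet and control in all neurons (point) with its 95% interval (line) for the 30 receptors that could be tested, from sums per mouse (7 control and 6 high fat diet mice). Every interval includes 0, and the estimates run from −0.42 (Insr) to 0.66 (Grpr).

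Lists of the receptors' ligands (34 genes), of leptin, insulin and IGF-1 signalling (27) and of receptor accessory proteins, G proteins and arrestins (31) gave 0 genes past the diet test in every class. In all neurons 24, 22 and 29 of them were tested, with median log2 differences of 0.03, −0.07 and −0.02 beside −0.0011 over all genes. The ligands with the smallest edgeR p-values in all neurons were Grp (log2 difference 0.71), Penk (−0.39) and Avp (2.59), each with adjusted p = 0.9997. In GABAergic neurons Grp, the ligand of Grpr, had a log2 difference of 1.85 (SE 0.38, adjusted p = 0.61 by edgeR). Between neuron types, where 9.13% of all genes differed, 14 of 24 ligands, 3 of 22 signalling genes and 4 of 28 accessory and G protein genes did. Of 24 ligands tested 8 were higher and 6 lower in GABAergic neurons, among them Crh (3.52) and Tac2 (5.33) higher and Adcyap1 (−5.16) and Igf1 (−1.91) lower. Crh was higher in the type in which its receptor Crhr1 was higher, and Adcyap1 was lower in the type in which its receptor Adcyap1r1 was higher. Only the receptors were left out of the clustering, so ligands could help to form these neuron types. Crh and Tac2 are among the leading genes of GABAergic subclusters, and Adcyap1 and Trh are markers of the glutamatergic type. The ligand counts and the matches with receptors are therefore no independent results. Of 22 signalling genes 2 were higher (Irs4, 0.74, and Stat3, 0.48) and 1 lower (Grb14, −0.54), and of 28 accessory and G protein genes 3 were higher, including Gnal (0.58, adjusted p = 3.28e-12), and 1 was lower, Mrap2 (−0.47, adjusted p = 1.56e-07), which encodes an accessory protein of Mc4r.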

How the data were processed

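The libraries were demultiplexed and aligned with bcl2fastq 2.18.0.12, Picard 2.2.4 and STAR 2.4.2a to the mouse build mm10 (GRCm38), per the submitters' processing notes. Which tool counted UMIs, and whether by strand, is not given in the sources used here. The authors deposited 1 table per mouse of whole-number UMI counts per gene and barcode, not normalized.

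Tables were joined by gene symbol. Barcodes with at least 500 UMIs, 300 genes and at most 20% mitochondrial UMIs were kept, and doublets predicted per mouse with Scrublet in scanpy 1.11.5 were removed (1.39%). Mice with fewer than 300 such barcodes had no doublets predicted or removed. Cells were clustered by the Leiden method (leidenalg 0.10.2, resolution 1, 2000 variable genes, 30 principal components, 15 neighbours) without the 41 receptors, and neurons were clustered again. A cluster was named where at least 3 markers of a type were raised 1.5-fold and present in at least 10% of its cells. Hypocretin and MCH neurons met this rule with Hcrt or Pmch among the 10 leading genes. Other neuron subclusters were named without a fold. They were glutamatergic where the share of cells with Slc17a6 was at least 3 times that with Slc32a1, and GABAergic in the reverse case. At least 3 markers of the type also had to be present in at least 10% of cells. The naming rules were refined after clusters were seen, and 880 cells of neuron clusters led by glial genes (median 777.5 UMIs) were kept out of the neurons.

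UMI counts were summed per mouse and class (at least 10 cells) and tested with edgeR 4.0.16 in R 4.3.3 (TMM, filterByExpr, robust quasi-likelihood fit, Benjamini-Hochberg over all genes, adjusted p under 0.05), with sequencing pool as a covariate for diet and mouse as a block between classes. DESeq2 1.42.0, no low-count filter, other clusterings, kept doublets, at least 1000 UMIs, each pool alone, no pool term, and leaving out each mouse were alternatives. Leaving out 3 mice together, keeping the glial-led neurons and thinning to 2000 UMIs were chosen after seeing the data.

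Values per mouse are given for Lepr, Insr, Mc4r, Hcrtr2, Mchr1, the 5 receptors with the most positive neurons, up to 5 in each direction that passed between neuron types and up to 3 higher in each other class than in neurons, and others named were chosen after their values were seen. The members and lists were chosen with earlier results of these data known. Where nothing says that mice of a group were otherwise independent, p-values measure the spread between these mice. On simulated counts with known changes, the diet test recovered 58% of 2-fold and 100% of 4-fold changes in all neurons (11006 genes), 52% and 100% in GABAergic neurons (9778), and the test between neuron types 70.7% and 100% (10354). The simulation used a fixed spread, not estimated from these data, without mouse or pool effects, and changed only the better counted genes. These percentages therefore do not measure how often a change would be found in a sparse receptor. Genes overlapping receptors were taken from GENCODE annotation of GRCm38. Shares in 1 glutamatergic subcluster are not reported here.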

Additional observations from a re-analysis of the deposited data

Results flagged for a closer look

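Single mice stood apart from the others of their diet in 9 of 78 groups of receptor values examined with Dixon's test. For normal values of equal spread, chance alone flags about 1 in 20 groups. The values here come from libraries of unlike size and some from few UMIs. The count is therefore not read as an excess. In neurons, Galr1 was 59.0 CPM in high fat diet mouse 1, where the next highest mouse was at 32.1 CPM. In GABAergic neurons, Tacr3 was 38.9 CPM in control mouse 1, with the next control at 14.2 CPM, and 27.0 CPM in high fat diet mouse 5, with the next at 14.2 CPM. In glutamatergic neurons, Calcr was 30.8 CPM in control mouse 3, with the next at 12.7 CPM, and Grpr was 48.4 CPM in high fat diet mouse 6, from 15 UMIs in 54 cells, with the next at 18.2 CPM. In oligodendrocytes, Ntsr2 and Insr were each 43.3 CPM in control mouse 6, from 2 UMIs each in 55 cells, with the next controls at 9.21 and 21.4 CPM. In the same class Igf1r was 86.8 CPM in high fat diet mouse 7, from 5 UMIs in 19 cells, with the next at 46.1 CPM. In endothelial cells, Igf1r was 336 CPM in high fat diet mouse 1, from 10 UMIs in 28 cells, with the next at 219 CPM. All but the Galr1, Tacr3 and Calcr values rest on at most 15 UMIs.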

How the results depend on the processing

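No receptor passed a diet test under any alternative that was run, and no called difference between classes reversed. Of 20 diet values followed over 447 alternative values, 13 changed sign at least once (31 times in all), none while past the threshold. Receptors higher in GABAergic neurons numbered 4, and 2 with the marker gate (Adcyap1r1 and Npy2r). Those lower numbered 2, with 1 in DESeq2, 4 at clustering resolution 2, and 1 to 4 when a mouse was left out (1 without control 3 or 4 or high fat diet 2 or 4, and 4 without control 7). Grpr and Tacr1 made up the additional calls at resolution 2 and without control 7. Receptors higher in microglia numbered 0, and 2 with DESeq2, without the low-count filter and without control 7, which made the leave-one-out range 0 to 2. Thinning to 800 UMIs, which also left out shallower cells, lowered the share of cells with a receptor UMI from 80.5% to 36.4% in neurons, 9.5% to 6.1% in oligodendrocytes and 55.9% to 45.7% in precursors. Insr in astrocytes was lost with at least 1000 UMIs. The causes were not tested.

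No paired analysis was possible because the replicate numbers of the mice only follow the order of deposit. Pool 2 alone, for glia other than oligodendrocytes and for vessel cells, and at least 1000 UMIs, for astrocytes, microglia and mural cells, left fewer than 3 mice per diet and were not run for diet.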

Other observations

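Calcrl needs a RAMP protein to form a receptor, and the classes that carried Calcrl carried different RAMP genes. Ramp1 was counted in 61.8% of oligodendrocyte precursors and was higher there than in neurons by 6.57 on the log2 scale, and it was counted in 40.9% of astrocytes (log2 difference 6.53). Ramp2 was counted in 62.7% of endothelial cells (log2 difference 6.12, adjusted p = 1.21e-67), 15.8% of mural cells and 9.52% of precursors. Ramp1 was counted in 1.19% of endothelial cells, and Ramp3 in no precursor or astrocyte and in 3.56% of endothelial cells. In astrocytes Ramp1 thus occurred where Calcrl was not among the receptors tested.

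Single signalling genes downstream of the insulin and IGF-1 receptors differed by class. Grb14, an adaptor that binds the insulin receptor, was higher in oligodendrocytes than in neurons by 5.6 on the log2 scale (adjusted p = 2.56e-63), as was Pik3r1, a regulatory subunit of phosphoinositide 3-kinase, by 2.50. Socs3, a feedback inhibitor of cytokine and leptin signalling, was higher than in neurons in microglia (9.40) and precursors (8.28). Over the signalling list, 13 of 23 tested were higher and 7 lower in oligodendrocytes (beside 43.1% and 42.2% of all genes), 10 of 25 and 7 in precursors (25.1% and 35.8%), and 8 of 18 and 5 in microglia (27.9% and 48%).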
